A study of Mus musculus with 12 samples.

Results

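Toll-like receptors, the lipopolysaccharide (LPS) co-receptors and their shared adaptor were examined in basophils grown from mouse bone marrow with interleukin-3 (IL-3) or thymic stromal lymphopoietin (TSLP). The members were the 9 listed symbols Tlr1, Tlr2, Tlr4, Tlr6, Tlr7, Tlr9, Cd14, Ly96 and Myd88, and each matched 1 row among the 31301 gene symbols of the count table. Marrow cells from C57BL/6J wild-type animals were kept for 7 days in IL-3 (0.3 ng/mL) or in TSLP (1 µg/mL), the latter dose as in the treatment protocol, since other label fields give another unit. The resulting bone marrow-derived basophils (BMBAs) were sorted into immature (FcεRIαhi CD49blo) cells, which the study calls pre-basophils, and mature (FcεRIαlo CD49bhi) cells. Each cytokine thus gave an immature and a mature group, and each of the 4 groups held 3 libraries. No group was cultured without either cytokine, and no group was stimulated with a Toll-like receptor ligand.

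Toll-like receptors are membrane proteins that bind microbial products. On the cell surface, TLR2 pairs with TLR1 or TLR6 to bind bacterial lipopeptides, and TLR4 binds LPS together with MD-2, the product of Ly96, after CD14 has handed the LPS over. TLR7 and TLR9 sit in endosomes and bind single-stranded RNA and unmethylated CpG DNA. All of these receptors pass their signal through the adaptor MyD88, which recruits IRAK kinases and leads to NF-κB activation and cytokine production, and MyD88 also serves the receptors for IL-1, IL-18 and IL-33, the last of which is a known activator of basophils.

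The comparisons asked how the expression of these genes differed between immature and mature basophils within each cytokine, and between TSLP and IL-3 at a matched stage. Library totals ran from 1720065 to 3685285 counts, and the ribosomal RNA row Rn45s took 7.43% to 20.2% of them. The 9 basophil markers examined, which include Mcpt8 and Fcer1a, were present in all 4 groups with summed levels of 8580 to 41869 CPM (counts scaled to library size after TMM normalisation). The 7 mast cell markers summed to at most 8.90 CPM in any library. The library TSLP mature 1 stood apart, with Ngp, a neutrophil granule gene, at 154 CPM against 5.11 and 5.23 CPM in the other two TSLP mature libraries, and with Itga2, which encodes the sorting marker CD49b, at 96.9 CPM against 209 and 199 CPM. Member calls that changed when it was left out are given in both forms.

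Of the 9 members, 6 passed the filter on low counts and were tested, namely Tlr1, Tlr2, Tlr4, Tlr6, Ly96 and Myd88. Tlr7, Tlr9 and Cd14 did not pass, with 63, 43 and 80 counts over all 12 libraries, and are described by their counts. A member was taken as below detection in a group where its 3 libraries held 3 or fewer counts in all, which is a floor of 0.286 to 0.386 CPM depending on the group. By this rule Tlr4 (3 counts) and Tlr9 (1 count) were below detection in IL-3 immature cells, and Tlr7 (3 counts) in TSLP immature cells. The other 33 of 36 combinations of gene and group were above the floor, and 0 members were below it in every group. Floors and count intervals rest on counts summed over the 3 libraries of a group and leave out the spread between libraries. They also take each count as separate, although PCR copies of 1 molecule can be counted more than once. In sorted bulk samples, a lower share of expressing cells and less RNA per cell cannot be told apart.

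Tlr1 and Tlr6 lie on chromosome 5 of GRCm38, both on the minus strand, at chr5:64924679-64933563 and chr5:64952031-64960097, with 18467 bases between them. Their transcripts share 6 stretches of 53 to 229 identical bases, 748 bases in all, which are in the coding sequence of both. Of all 50-base windows of the Tlr1 transcript, 15.3% occur in Tlr6, so reads from these stretches fit either gene. The longest shared stretch is printed because the counts of this pair have to be read with it in mind. It spans chr5:64925537-64925765 in Tlr1 and chr5:64953828-64954056 in Tlr6, and is shown in capitals between 20 flanking bases of each transcript in lower case.
Tlr1: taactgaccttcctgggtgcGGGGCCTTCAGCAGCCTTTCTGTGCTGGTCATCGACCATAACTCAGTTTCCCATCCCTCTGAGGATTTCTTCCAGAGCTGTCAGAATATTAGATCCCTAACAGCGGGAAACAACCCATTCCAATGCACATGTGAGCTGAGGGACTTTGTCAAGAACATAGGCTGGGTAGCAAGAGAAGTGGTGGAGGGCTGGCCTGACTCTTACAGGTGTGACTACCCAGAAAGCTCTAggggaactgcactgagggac
Tlr6: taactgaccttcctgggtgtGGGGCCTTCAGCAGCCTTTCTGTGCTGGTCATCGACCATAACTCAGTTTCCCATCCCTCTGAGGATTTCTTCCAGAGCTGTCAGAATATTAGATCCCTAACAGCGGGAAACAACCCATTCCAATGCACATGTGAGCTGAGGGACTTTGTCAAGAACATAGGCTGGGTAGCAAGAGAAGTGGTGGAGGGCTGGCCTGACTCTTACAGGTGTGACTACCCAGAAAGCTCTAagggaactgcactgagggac
The ratio of the Rn45s count to the summed counts of Rn18s and Rn28s1, which lie within it, was 1.00 to 1.02, so 1 read could be counted for more than 1 gene. The tests of Tlr1 and Tlr6 were therefore repeated after the counts expected from the other gene's shared stretches had been taken off, and these values are given below.

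Tlr1 showed the widest range among the members. In IL-3 immature libraries it was at 1.94, 0.286 and 0.331 CPM, from 4, 1 and 1 counts. In IL-3 mature libraries it was at 28.9, 26.2 and 25.7 CPM, from 81, 72 and 57 counts. All 3 mature libraries thus lay above all 3 immature ones, with hardly any Tlr1 in the latter. In TSLP immature libraries Tlr1 was at 12.03, 12.9 and 13.6 CPM, and in TSLP mature libraries at 32.9, 41.4 and 42.5 CPM. The 4 groups did not overlap, and their order was IL-3 immature, TSLP immature, IL-3 mature and TSLP mature.

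**Figure D1:**
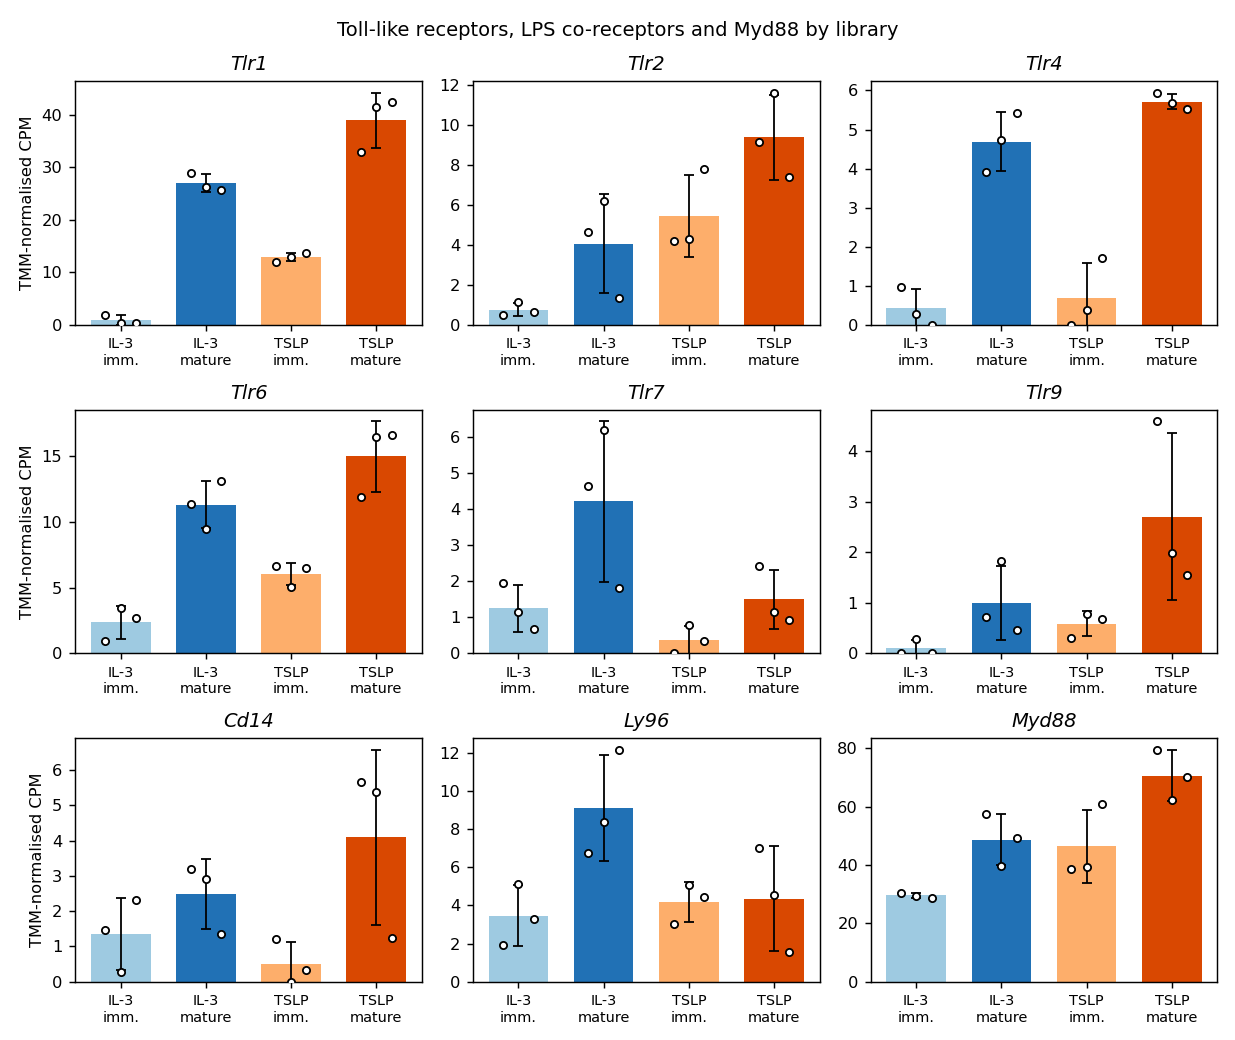
TMM-normalised CPM (y axis, linear, a separate scale for each gene) of the 9 members in the 4 groups, with bars for the mean, error bars for the SD and 1 point per library (n = 3). Tlr1 rises from 0.852 CPM on average in IL-3 immature to 38.9 CPM in TSLP mature cells, while Tlr7, Tlr9 and Cd14 reach at most 6.19 CPM in any library.

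In IL-3 cultures Tlr1 rose with maturation by 5.17 ± 0.383 on the log2 scale (± SE, 95% interval 4.36 to 5.98), with an adjusted p of 2.5e-08 by the quasi-likelihood test of edgeR with Benjamini-Hochberg adjustment over all 10861 genes tested. As a ratio of summed counts over library size this was 38.7-fold (exact binomial interval 17.5 to 107). In TSLP cultures Tlr1 rose by 1.60 ± 0.234 (adjusted p = 0.00011, edgeR), a ratio of 3.02. The rise was smaller in TSLP than in IL-3 cultures by 3.57 ± 0.493 on the log2 scale (interval 2.53 to 4.62), and this difference itself passed the test of the interaction with an adjusted p of 0.00064 (edgeR). Between immature cells of the 2 cultures Tlr1 was higher with TSLP by 4.10 ± 0.414 (adjusted p = 1.2e-05, edgeR), a ratio of 18.3 (exact binomial interval 8.16 to 51.0). Between mature cells it differed by 0.53 ± 0.221, which did not pass (adjusted p = 0.092, edgeR), although the 3 TSLP libraries lay above the 3 IL-3 libraries. Without the library IL-3 immature 1, which is in neither group, this last value was 0.49 with an adjusted p of 0.045, and with upper-quartile scaling 0.61 with an adjusted p of 0.0496 (edgeR).

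Tlr6 followed the same order of means at a lower level. It was at 0.97, 3.43 and 2.65 CPM in IL-3 immature, 11.4, 9.47 and 13.1 CPM in IL-3 mature, 6.61, 5.08 and 6.47 CPM in TSLP immature, and 11.9, 16.5 and 16.6 CPM in TSLP mature libraries. Mature libraries lay above immature ones in both cultures, and TSLP immature above IL-3 immature libraries, while the mature groups of the 2 cytokines overlapped. The rise with maturation was 2.15 ± 0.351 on the log2 scale with IL-3 (adjusted p = 0.00011, edgeR) and 1.29 ± 0.291 with TSLP (adjusted p = 0.0041, edgeR). TSLP immature cells were higher than IL-3 immature cells by 1.26 ± 0.372 (adjusted p = 0.034, edgeR). With 15.3% of the Tlr1 counts of each library taken off, an alternative added after the data were seen, the rise with maturation was 1.57 with IL-3 (adjusted p = 0.0080, edgeR) and 1.11 with TSLP (adjusted p = 0.045, edgeR). The difference between immature cells fell to 0.80 and no longer passed (adjusted p = 0.28, edgeR), with 21 counts left in IL-3 immature cells in place of 22 and 37 left in TSLP immature cells in place of 54. That call was also lost without IL-3 immature 1 (0.94, adjusted p = 0.12, edgeR), IL-3 immature 3 (1.30, 0.068), TSLP immature 1 (1.19, 0.094) or TSLP immature 3 (1.204, 0.11). The calls on Tlr1 were the same after the converse subtraction, with a rise of 5.63 in IL-3 cultures (adjusted p = 2.4e-07, edgeR), 1.62 in TSLP cultures (adjusted p = 0.00078) and a difference of 4.55 between immature cells (adjusted p = 8.2e-05).

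Tlr2, the common partner of TLR1 and TLR6, lies at chr3:83836272-83841767 on the minus strand and shares no 50-base window with another gene. It was at 0.485, 1.14 and 0.662 CPM in IL-3 immature and 4.63, 6.19 and 1.35 CPM in IL-3 mature libraries. The mature libraries lay above the immature ones, though IL-3 mature 3 held only 3 counts. In TSLP cultures Tlr2 was at 4.21, 4.30 and 7.83 CPM in immature and 9.17, 11.6 and 7.38 CPM in mature libraries, and these groups overlapped. Tlr2 rose with maturation in IL-3 cultures by 2.31 ± 0.609 (adjusted p = 0.0055, edgeR). In TSLP cultures the difference was 0.78 ± 0.396 with an interval from -0.055 to 1.62, and it did not pass (adjusted p = 0.16, edgeR). The test of the difference between the 2 rises did not pass either (adjusted p = 0.28, edgeR). In immature cells Tlr2 was higher with TSLP than with IL-3 by 2.69 ± 0.580 (adjusted p = 0.0069, edgeR), a ratio of 6.67 (exact binomial interval 3.001 to 17.5). In mature cells it differed by 1.17 ± 0.417 (adjusted p = 0.052, edgeR) and passed without IL-3 mature 2 (1.58, adjusted p = 0.042, edgeR), without a filter (1.18, adjusted p = 0.032) and with upper-quartile scaling (1.25, adjusted p = 0.036).

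Tlr4, at chr4:66827584-66930284 on the plus strand, was found mainly in mature cells. IL-3 immature libraries held 2, 1 and 0 counts and TSLP immature libraries 0, 1 and 5 counts. IL-3 mature libraries held 11, 13 and 12 counts (3.92, 4.74 and 5.41 CPM) and TSLP mature libraries 22, 20 and 18 counts (5.94, 5.67 and 5.54 CPM). Every mature library was above every immature library of either culture. The rise with maturation was 3.57 ± 0.766 with IL-3 (adjusted p = 0.0012, edgeR), a ratio of 13.3 whose exact binomial interval of 4.19 to 67.3 shows the few counts behind it. With TSLP it was 2.99 ± 0.641 (adjusted p = 0.0028, edgeR), a ratio of 8.42 (interval 3.65 to 23.8). Between cytokines Tlr4 differed by 0.29 ± 0.481 in mature cells (interval -0.72 to 1.31, adjusted p = 0.69, edgeR). In immature cells, where both groups were near the floor, the difference was 0.87 ± 1.04 with an interval of -1.33 to 3.07 and was not detectable at this depth (adjusted p = 0.63, edgeR).

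Ly96, whose product MD-2 completes the LPS receptor, lies at chr1:16688051-16709611 on the plus strand. With IL-3 it was at 1.94, 5.14 and 3.31 CPM in immature and at 6.77, 8.38 and 12.2 CPM in mature libraries, without overlap. In TSLP cultures it was at 3.01, 5.08 and 4.43 CPM in immature and 7.01, 4.54 and 1.54 CPM in mature libraries, and the mature libraries spanned the whole range of the immature ones. Ly96 rose with maturation in IL-3 cultures by 1.30 ± 0.466 (adjusted p = 0.031, edgeR). This call was lost without IL-3 immature 1 (0.97, adjusted p = 0.15, edgeR), IL-3 immature 3 (1.24, 0.087), IL-3 mature 2 (1.36, 0.056) or IL-3 mature 3 (1.05, 0.12). In TSLP cultures the difference was 0.10 ± 0.476 (interval -0.91 to 1.11, adjusted p = 0.90, edgeR), and -0.50 without TSLP mature 1 (adjusted p = 0.49). In mature cells Ly96 was the one tested member with a lower mean in TSLP than in IL-3 cultures, by -1.02 ± 0.442 (adjusted p = 0.10, edgeR), and it passed without TSLP mature 1 (-1.62, adjusted p = 0.018, edgeR).

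Cd14, the LPS-binding co-receptor at chr18:36725067-36726798 on the minus strand, was not tested. IL-3 immature libraries held 3, 1 and 7 counts and IL-3 mature libraries 9, 8 and 3. TSLP immature libraries held 4, 0 and 1 counts and TSLP mature libraries 21, 19 and 4. Immature and mature libraries overlapped with IL-3 but not with TSLP, where the lowest mature library was at 1.23 CPM and the highest immature library at 1.203 CPM. The ratio of mature to immature was 2.01 with IL-3 (exact binomial interval 0.917 to 4.64) and 7.41 with TSLP (interval 2.95 to 23.9). In a fit without the filter, the TSLP difference was 2.77 ± 0.688 on the log2 scale with an adjusted p of 0.00095 (edgeR). Without TSLP mature 1, which held 21 of the 44 TSLP mature counts, the ratio was 5.99 (interval 2.23 to 20.2) and the difference 2.42 ± 0.743 (adjusted p = 0.010, edgeR), a setting added after the data were seen. Levels of LPS receptor genes in mature cells ranged, per kilobase of transcript, from 1.15 CPM for Tlr4 to 14.4 CPM for Ly96 with IL-3, and from 1.40 CPM for Tlr4 to 6.91 CPM for Ly96 with TSLP.

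The endosomal receptors Tlr7 and Tlr9 were scarce throughout. Tlr7, at chrX:167304929-167330558 on the minus strand, had 4, 4 and 2 counts in immature and 13, 17 and 4 counts in mature libraries with IL-3, and 0, 2 and 1 counts in immature and 9, 4 and 3 counts in mature libraries with TSLP. Its highest mean was thus in IL-3 mature cells, at 4.21 ± 2.22 CPM (SD, n = 3), though these libraries overlapped those of IL-3 immature and TSLP mature cells. The ratio of IL-3 mature to TSLP mature cells was 2.87 (exact binomial interval 1.54 to 5.56), and in a fit without the filter the difference did not pass (adjusted p = 0.11, edgeR), though it did when TSLP mature 1 was also left out (2.02 ± 0.688 higher with IL-3, adjusted p = 0.029). The rise with maturation in IL-3 cultures passed in that fit (1.73 ± 0.655, adjusted p = 0.038, edgeR). Tlr9, at chr9:106222598-106226883 on the plus strand, had 0, 1 and 0 counts in immature and 2, 5 and 1 counts in mature libraries with IL-3, and 1, 2 and 2 counts in immature and 17, 7 and 5 counts in mature libraries with TSLP. The library TSLP mature 1 held 17 of the 29 TSLP mature counts, at 4.59 CPM against 1.99 and 1.54 CPM in the others. None of the 4 pairwise comparisons of Tlr9 passed without the filter, where the adjusted p ran from 0.058 to 0.57 (edgeR), and without TSLP mature 1 as well it was 0.39 for the rise with TSLP (1.49 ± 0.944).

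Myd88, the adaptor, was the most abundant member, and the ratio of its highest to its lowest group mean was the smallest among the 9. It lies at chr9:119335934-119341411 on the minus strand, and its exons overlap those of Acaa1a on the opposite strand, whose reads cannot be separated unless the counting used strand. Myd88 was at 30.6, 29.4 and 28.8 CPM in IL-3 immature, 57.3, 39.7 and 49.2 CPM in IL-3 mature, 38.8, 39.5 and 60.9 CPM in TSLP immature, and 79.6, 62.1 and 70.2 CPM in TSLP mature libraries. Mature libraries lay above immature ones in both cultures, and TSLP above IL-3 libraries at both stages. The rise with maturation was 0.72 ± 0.212 with IL-3 (adjusted p = 0.011, edgeR), and the call was lost without IL-3 mature 1 (0.58, adjusted p = 0.058, edgeR). With TSLP it was 0.61 ± 0.202 (adjusted p = 0.037, edgeR). That call was lost in a fit of the 2 TSLP groups alone (0.58, adjusted p = 0.099, edgeR), under other filters, and without any 1 of 6 libraries, namely TSLP mature 1 (0.42, adjusted p = 0.11), TSLP immature 1 (0.49, 0.17), TSLP immature 2 (0.50, 0.15), TSLP mature 3 (0.61, 0.070), IL-3 immature 1 (0.52, 0.071) and IL-3 immature 2 (0.61, 0.0505). TSLP exceeded IL-3 by 0.53 ± 0.202 in mature cells (adjusted p = 0.065, edgeR) and by 0.65 ± 0.211 in immature cells (adjusted p = 0.052, edgeR), and neither passed. Both passed with upper-quartile scaling (0.62, adjusted p = 0.034 and 0.66, adjusted p = 0.049, edgeR). Without TSLP mature 1 the value in mature cells was 0.35 (adjusted p = 0.19), while that in immature cells passed (0.61, adjusted p = 0.030), as it did in a fit of the 2 immature groups alone (0.61, adjusted p = 0.042, edgeR).

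**Figure D2:**
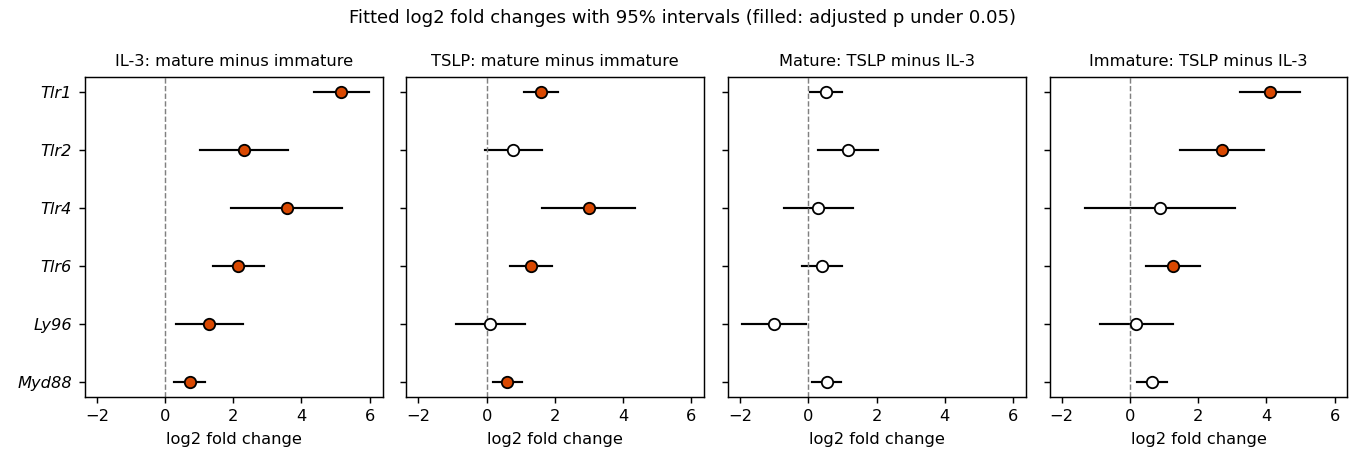
Fitted log2 fold changes (x axis) of the 6 tested members in the 4 comparisons, with lines for the 95% interval and filled points for an adjusted p under 0.05. With IL-3 all 6 members are higher in mature cells, and between mature cells of the 2 cultures 0 of 6 pass.

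Counted over the tested members, 6 of 6 were called higher in mature than in immature cells with IL-3, in a comparison where 46.2% of all tested genes were called and 24.1% were called higher in mature cells. With TSLP 4 of 6 were called higher in mature cells (Tlr1, Tlr4, Tlr6 and Myd88), against 25.1% of all tested genes called and 12.9% called in that direction. Without TSLP mature 1 it was 3 of 6, for which these shares of the fit with all 12 libraries do not hold. Tlr4 reached the filter's level in its mature libraries alone (11 to 22 counts each, against 0 to 5 in immature ones), and Tlr1 and Tlr2 in 0 of 3 IL-3 immature libraries, so these differences were favoured by the filter and the counts are a description only. Between mature cells 0 of 6 were called by edgeR and 0 of 6 by DESeq2, against 24.3% of all tested genes, while 4 had an unadjusted p under 0.05. Between immature cells 3 of 6 were called, all higher with TSLP (Tlr1, Tlr2 and Tlr6), against 13.3% of all tested genes called and 7.38% called in that direction. The interaction was called for 1 of 6 members, Tlr1, against 4.19% of all tested genes.

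The median log2 fold change of the tested members, as mature minus immature, was 2.23 with IL-3 and 1.04 with TSLP, against 0.065 and 0.032 for all tested genes. Including the members that were not tested, all mature libraries lay above all immature ones for 7 of 9 members in IL-3 cultures, where 30.0% of all tested genes did so, and for 7 of 9 in TSLP cultures, where 20.4% did. Tlr7 and Cd14 were the exceptions with IL-3, and Tlr2 and Ly96 with TSLP. All TSLP libraries lay above all IL-3 libraries for 4 of 9 members in mature cells (Tlr1, Tlr2, Tlr4 and Myd88), against 20.9% of all tested genes, and for 5 of 9 in immature cells (Tlr1, Tlr2, Tlr6, Tlr9 and Myd88), against 20.2%. For Tlr9, in immature cells and with maturation in IL-3 cultures, the closest libraries held 1 count each and were set apart by library size alone. The same held for Cd14 with maturation in TSLP cultures, at 4 counts each. The shares cover only genes that passed the filter, which these untested members did not. The comparisons share groups with each other and are not independent.

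Compared per kilobase of transcript, Myd88 had the highest level among the members in all 4 groups, from 15.1 ± 0.455 CPM per kb in IL-3 immature to 36.0 ± 4.46 CPM per kb in TSLP mature cells (SD, n = 3). In IL-3 mature cells the order continued with Ly96 at 14.4 ± 4.39, Tlr1 at 8.90 ± 0.557 and Tlr6 at 3.08 ± 0.491 CPM per kb. Below these, Cd14 at 1.52, Tlr2 at 1.35, Tlr4 at 1.15 and Tlr7 at 1.08 CPM per kb did not differ from each other beyond their SDs of 0.184 to 0.820, and Tlr9 was lowest at 0.286 CPM per kb. In TSLP mature cells Tlr1 came next after Myd88, at 12.9 ± 1.73 CPM per kb, and Ly96 followed at 6.91 ± 4.34, a spread that also covers Tlr6 at 4.07 and Tlr2 at 3.12 CPM per kb. In immature cells Ly96 ranked after Myd88 in both cultures, at 5.48 ± 2.54 CPM per kb with IL-3 and 6.60 ± 1.68 CPM per kb with TSLP. Tlr1 ranked 6 of 9 in IL-3 immature cells at 0.282 CPM per kb and 3 of 9 in TSLP immature cells at 4.25 CPM per kb. These levels assume even coverage along the longest coding transcript of each gene.

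RefSeq held a promoter window (GRCm38.p6, 250 bases before to 50 after the start) for 5 of the 9 members, Tlr1, Tlr2, Tlr6, Tlr9 and Myd88. The windows of the 3 members called higher in TSLP than in IL-3 immature cells are printed. They are on the minus strand at chr5:64933509-64933808 for Tlr1, chr5:64959999-64960298 for Tlr6 and chr3:83841559-83841858 for Tlr2, and RefSeq lists a further start for both Tlr1 and Tlr6. Capitals mark matches to 4 motifs on either strand, chosen with the results known, namely the STAT motif TTCNNNGAA, the GATA motif GATAA, the ETS motif GAGGAA and the C/EBP motif TTGCNNAA. The receptors of both TSLP and IL-3 signal through STAT5.
Tlr1: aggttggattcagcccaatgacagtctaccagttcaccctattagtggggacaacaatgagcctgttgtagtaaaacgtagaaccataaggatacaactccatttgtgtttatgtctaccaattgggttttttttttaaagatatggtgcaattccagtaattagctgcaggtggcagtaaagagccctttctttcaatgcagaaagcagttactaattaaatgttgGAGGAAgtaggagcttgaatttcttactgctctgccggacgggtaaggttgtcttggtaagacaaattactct
Tlr6: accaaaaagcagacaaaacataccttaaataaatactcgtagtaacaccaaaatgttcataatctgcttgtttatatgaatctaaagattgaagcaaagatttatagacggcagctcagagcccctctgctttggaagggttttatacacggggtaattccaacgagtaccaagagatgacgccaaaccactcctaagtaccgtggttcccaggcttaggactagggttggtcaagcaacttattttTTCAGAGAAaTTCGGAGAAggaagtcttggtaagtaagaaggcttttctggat
Tlr2: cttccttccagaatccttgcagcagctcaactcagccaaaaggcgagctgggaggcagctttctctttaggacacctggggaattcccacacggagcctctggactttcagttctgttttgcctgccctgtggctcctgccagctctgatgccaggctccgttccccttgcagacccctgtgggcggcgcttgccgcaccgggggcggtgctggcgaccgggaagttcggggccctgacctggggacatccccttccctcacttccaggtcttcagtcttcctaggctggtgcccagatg
The Tlr6 window held 2 non-overlapping STAT matches, with first bases at -3 and 8 from the start, the printed Tlr1 window held 1 ETS match at -23, and the Tlr2 window held none of the 4 motifs. Among the windows not printed, a STAT match was found in the Myd88 window at -46 and in that of the other Tlr1 start at -228. The latter also held a GATA match at -77. The window of the other Tlr6 start held a C/EBP match at -89. The Tlr9 window held a GATA match at -93 and ETS matches at -112 and 13. Over all 32851 promoter windows, 8.30% held a STAT match, 25.4% a GATA match, 28.3% an ETS match and 10.8% a C/EBP match. These are matches of letters and not measured binding.

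The genes whose pattern over the 12 libraries was most like that of Tlr1, by the root mean square difference of log2 CPM centred on each gene's mean, were Adgre1 (0.31), Lypd6 (0.39) and Upp1 (0.45) among 7549 genes compared. Adgre1, which encodes the surface protein F4/80, had means of 4.04 CPM in IL-3 immature, 93.8 CPM in IL-3 mature, 51.4 CPM in TSLP immature and 195 CPM in TSLP mature cells, the same order as Tlr1. For Myd88 the closest genes were Rgs14, Cyren and Napa, with differences of 0.14 to 0.15. Only these 2 members had a mean of at least 10 CPM and were compared in this way.

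Toll-like receptors are also carried by monocytes, macrophages, neutrophils and B cells, so the markers of these cells were examined. The 10 monocyte and macrophage markers, Adgre1 among them, summed to 217 to 362 CPM in IL-3 immature, 779 to 1147 CPM in IL-3 mature, 332 to 399 CPM in TSLP immature and 731 to 1643 CPM in TSLP mature libraries, and 0 of the 10 were absent from any group. This sum moved with maturation like the members did. Between immature cells of the 2 cultures, Adgre1 was at 3.14 to 5.34 CPM with IL-3 and at 46.0 to 58.9 CPM with TSLP, and the monocyte gene Ly6c2 was at 6.62 to 10.2 and 35.2 to 53.5 CPM, so these markers moved with Tlr1 there too. Over all libraries the macrophage markers C1qa and C1qb were at 0 to 12.4 CPM and 0.902 to 51.0 CPM, both highest in TSLP mature 1. The 10 neutrophil markers summed to 241 to 285, 1222 to 1445, 354 to 392 and 685 to 1490 CPM in the same order of groups, of which Cxcr2 alone took 913 to 1011 CPM in IL-3 mature libraries. With maturation in IL-3 cultures Retnlg went from 3.396 to 5.63 CPM up to 87.8 to 119 CPM, S100a9 from 18.2 to 40.8 up to 98.7 to 132, S100a8 from 11.9 to 28.3 up to 47.7 to 86.9, and Ly6g from 0 to 0.286 up to 5.83 to 8.19 CPM. Lcn2, of the same list, went the other way, from 92.2 to 120 CPM down to 20.3 to 25.6 CPM. The 8 B cell markers summed to at most 7.28 CPM in IL-3 libraries. With TSLP they summed to 34.8 to 41.9 CPM in immature and to 175, 20.1 and 21.8 CPM in mature libraries. TSLP mature 1 was highest in the monocyte, neutrophil and B cell sums, with 1643, 1490 and 175 CPM. Without it, the rise with maturation in TSLP cultures was 1.61 for Tlr1 (adjusted p = 4.1e-05, edgeR), 2.87 for Tlr4 (adjusted p = 0.0042) and 1.34 for Tlr6 (adjusted p = 0.0023), against 1.60, 2.99 and 1.29 with it, and 0.42 for Myd88, which was then not called (adjusted p = 0.11). In the other 2 TSLP mature libraries the monocyte sum was still 731 and 781 CPM and the neutrophil sum 703 and 685 CPM, above all TSLP immature libraries. Cxcr2 alone took 642 and 631 CPM of this neutrophil sum. Ngp, Ly6g and Mmp8 also lay above all TSLP immature libraries there. Lcn2 lay below them, at 11.1 and 14.8 CPM against 99.8 to 118 CPM, and S100a8, S100a9, Retnlg, Ltf and Camp overlapped. The 8 dendritic cell markers summed to 111 to 130 CPM in IL-3 immature and 96.5 to 151 CPM in IL-3 mature libraries. With TSLP they summed to 97.4 to 110 CPM in immature and to 141, 82.6 and 63.7 CPM in mature libraries. The 5 eosinophil markers summed to 26.9 to 32.0, 22.6 to 28.5, 9.38 to 22.5 and 30.1 to 73.9 CPM in the same order of groups. The part of other cells in these results was not tested.

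The rest of the pathway was described with 47 further genes in 5 lists, of which 41 were tested. Of these, 16 were called between IL-3 immature and mature cells, 14 higher in mature and 2 higher in immature cells. The share called was below the 46.2% of all tested genes, of which 24.1% were called higher in mature cells. With TSLP 13 were called, against 25.1% of all tested genes, 11 higher in mature cells, against 12.9%, and 2 higher in immature cells. Without TSLP mature 1 it was 10, with 6 and 4. Shares of all tested genes given here and below are of the fit with all 12 libraries. They do not hold for the counts without TSLP mature 1. Between mature cells 10 were called, against 24.3% of all tested genes, 4 higher with TSLP and 6 higher with IL-3, and without TSLP mature 1 it was 13, with 3 and 10. Between immature cells 5 were called, against 13.3%, of which 4 were higher with TSLP, and in the interaction 1, against 4.19%. Without TSLP mature 1 the count between immature cells was 11, with 6 higher with TSLP, and in the interaction 2. The calls over all tested genes also moved when 1 library was left out. They ran from 1765 to 3449 between stages with TSLP and from 1663 to 2945 between mature cells, against 2731 and 2634 with all 12 libraries. Between immature cells they ran from 594 to 2225 and in the interaction from 248 to 720, against 1443 and 455.

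**Figure D3:**
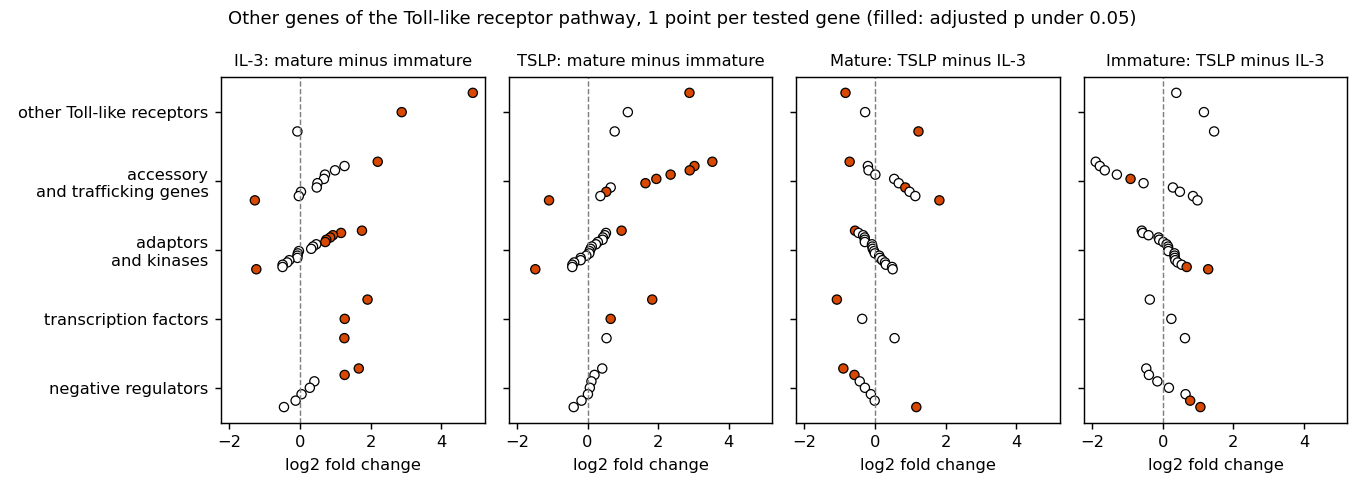
Fitted log2 fold changes (x axis) of the 41 tested pathway genes in 5 lists (rows) and 4 comparisons (panels), 1 point per gene and filled points for an adjusted p under 0.05. Of the filled points, 14 of 16 lie on the mature side with IL-3 and 11 of 13 with TSLP (6 of 10 without TSLP mature 1). Over all tested genes, with all 12 libraries, this was 2616 of 5020 called with IL-3 and 1403 of 2731 called with TSLP. The 6 of 10 has no such share beside it.

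Among the other Toll-like receptors, Tlr3, Tlr5 and Tlr11 did not pass the filter, with at most 6 counts in any group. Tlr13, an endosomal receptor for bacterial ribosomal RNA, had means of 0.948 CPM in IL-3 immature, 25.6 CPM in IL-3 mature, 1.84 CPM in TSLP immature and 14.4 CPM in TSLP mature cells. It rose with maturation by 4.89 ± 0.429 with IL-3 (adjusted p = 1.6e-07, edgeR) and by 2.88 ± 0.378 with TSLP (adjusted p = 3.7e-05, edgeR). Tlr13 was lower in TSLP than in IL-3 mature cells, by -0.84 ± 0.276 (adjusted p = 0.038, edgeR). Tlr8, a low-level receptor for RNA, rose with maturation in IL-3 cultures (2.88, adjusted p = 0.00038, edgeR), and Tlr12 was higher in TSLP than in IL-3 mature cells (1.23, adjusted p = 0.016, edgeR), a call that was lost without TSLP mature 1 (1.01, adjusted p = 0.053, edgeR).

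Among 12 genes for receptor accessory proteins and trafficking, 10 were tested. Hsp90b1, the chaperone gp96 that folds Toll-like receptors and many other secreted proteins, fell with maturation, from 2520 to 1041 CPM with IL-3 (-1.28 ± 0.187, adjusted p = 3.8e-05, edgeR) and from 1344 to 633 CPM with TSLP (-1.09 ± 0.186, adjusted p = 0.00045, edgeR). Cnpy3, its co-chaperone for these receptors, was higher in TSLP than in IL-3 mature cells by 0.85 ± 0.186 (adjusted p = 0.0046, edgeR). The cathepsins Ctss and Ctsl, proteases that cleave endosomal receptors, were called higher in TSLP mature than in TSLP immature cells, by 2.89 ± 0.688 (adjusted p = 0.0057, edgeR) and 1.95 ± 0.604 (adjusted p = 0.026, edgeR). In both, TSLP mature 1 stood far above the other two libraries, with Ctss at 484 against 123 and 95.1 CPM and Ctsl at 46.9 against 9.08 and 14.2 CPM, and without it Ctss rose by 1.70 (adjusted p = 0.031, edgeR) while Ctsl was not called. In the whole list 8 of 10 were called in that comparison, 7 of them higher in mature cells, against 25.1% of all tested genes, and 2 of 10 were called with IL-3, against 46.2%. Without TSLP mature 1 these counts were 3 of 10 with TSLP (Hsp90b1, Ctss and Lgmn) and 3 of 10 with IL-3 (Hsp90b1, Lgmn and Ly86). The calls with IL-3 over all tested genes then went from 5020 to 5620.

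Of 18 tested adaptors and kinases, 7 were called with IL-3, 6 of them higher in mature cells, against 46.2% of all tested genes, and 2 with TSLP, against 25.1%. Without TSLP mature 1 these counts were 9 and 5, while the calls with IL-3 over all tested genes also went up, from 5020 to 5620. Irak2, a kinase that sustains signalling downstream of MyD88, had means of 6.76 and 23.7 CPM in immature and mature cells with IL-3, and of 17.1 and 33.4 CPM with TSLP, the same order of groups as Tlr1. It rose with maturation by 1.75 ± 0.242 with IL-3 (adjusted p = 2.2e-05, edgeR) and by 0.96 ± 0.210 with TSLP (adjusted p = 0.0031, edgeR), and in immature cells it was higher with TSLP by 1.29 ± 0.246 (adjusted p = 0.0031, edgeR). Tab2, which links TRAF6 to the kinase TAK1, rose with maturation with IL-3 by 1.16 ± 0.163 (adjusted p = 2.6e-05, edgeR). Chuk, the kinase IKKα, was higher in TSLP than in IL-3 immature cells by 0.68 ± 0.212 (adjusted p = 0.044, edgeR).

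The 3 interferon regulatory factors Irf3, Irf5 and Irf7 were all called higher in mature cells with IL-3, against 46.2% of all tested genes called and 24.1% called in that direction. Irf3 rose by 1.27 ± 0.206 (adjusted p = 0.00011, edgeR) and Irf7 by 1.26 ± 0.292 (adjusted p = 0.0023, edgeR). With TSLP, Irf3 and Irf5 were called higher in mature cells, against 25.1% of all tested genes called and 12.9% called in that direction. Without TSLP mature 1 Irf5 was still called (1.39, adjusted p = 0.0086, edgeR) and Irf3 was not (0.35, adjusted p = 0.16). Irf7, which acts downstream of the endosomal receptors, was lower in TSLP than in IL-3 mature cells by -1.08 ± 0.283 (adjusted p = 0.013, edgeR), with TSLP mature 1 at 26.2 CPM inside the IL-3 range of 24.8 to 45.2 CPM and the other two at 11.9 and 13.5 CPM.

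Of 7 negative regulators, 2 were called with IL-3, both higher in mature cells, against 46.2% of all tested genes, and 0 with TSLP, against 25.1%. Peli1, a ubiquitin ligase of the pathway, averaged 12.4 CPM before and 39.5 CPM after maturation with IL-3 (1.66 ± 0.198, adjusted p = 4.4e-06, edgeR) but at 26.2 and 26.4 CPM in TSLP immature and mature cells. Its rise was smaller in TSLP than in IL-3 cultures by 1.65 ± 0.270 in the test of the interaction (adjusted p = 0.0026, edgeR). Tnfaip3, which encodes the deubiquitinase A20, rose with maturation with IL-3 by 1.26 ± 0.242 (adjusted p = 0.00048, edgeR) and was higher in TSLP than in IL-3 immature cells by 0.78 ± 0.244 (adjusted p = 0.045, edgeR). Between mature cells Sigirr, an inhibitory receptor of the family, was higher with TSLP by 1.17 ± 0.217 (adjusted p = 0.0019, edgeR), and the deubiquitinase gene Cyld was lower with TSLP by -0.90 ± 0.231 (adjusted p = 0.012, edgeR).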

How the data were processed

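Polyadenylated RNA of 12 sorted BMBA libraries was sequenced on an Ion Proton after oligo(dT) capture and whole-transcriptome PCR. The authors trimmed adapters with Cutadapt, aligned reads with Bowtie2 to mouse reference RNA (GRCm38) and deposited raw counts per gene symbol. The submitters' processing notes name the builds GRCm39 and mm10. How reads fitting several transcripts were counted, and whether strand or molecular identifiers were used, is not given in the sources used here. Of the columns, 12 were mapped by name. A row without a symbol, equal to the column sum (50.0% of each column), was left out.

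Genes were kept by filterByExpr (minimum count 10, minimum total 15), which left 10861. The quasi-likelihood test of edgeR 4.0.16 (R 4.3.3) was fitted to all 12 libraries with 1 mean per group and TMM normalisation, and Benjamini-Hochberg adjusted p-values under 0.05 were called. The common biological coefficient of variation was 20.4%. SEs were derived from the F statistic. Ratios of summed counts have 95% exact binomial intervals. Libraries of the same group differed by more than sampling noise. The study describes separate cultures, but the labels do not say so, and the p-values measure the spread between these libraries. Correlations of the deviations of same-numbered libraries ran from -0.0769 to 0.388 and were not above 0.1 for every pair in any comparison, so no block was used. Alternatives included DESeq2 1.42.0, other scalings and filters, a block and leaving out each library. Coordinates and transcripts came from GENCODE for GRCm38, promoters from RefSeq.

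All members and, for each list and comparison, at most 2 called genes in each direction with the largest changes and a mean of 10 CPM or more were named; Tlr8, Tlr12 and Irf5 were named after their values were seen. The members, lists and motifs were chosen with earlier results of these data known. The fit was tested on simulated data.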

Additional observations from a re-analysis of the deposited data

Results flagged for a closer look

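The difference of the maturation effect on Tlr1 between TSLP and IL-3 cultures is listed here because the test of the difference itself passed. On the log2 scale of immature minus mature cells, it was 3.57 more positive with TSLP (adjusted p = 0.00064, edgeR). Tlr1 was higher in mature cells in both cultures, with all 3 mature libraries above all 3 immature libraries in each, and the IL-3 immature level rests on 6 counts in all. Over the alternatives the difference ran from 3.10 to 4.68, with an adjusted p between 2.9e-08 and 0.0071 (edgeR, and DESeq2 in 1 alternative).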

How the results depend on the processing

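Across 588 values of the tested members under other settings, 548 kept their direction and side of the threshold, 20 lost a call, 13 gained one and 7 turned direction. A filter of at least 10 CPM in 3 libraries left only Tlr1, Tlr6 and Myd88 to test. All 3 were called between stages with IL-3, where 4179 of all genes were called in place of 5020. With TSLP 2 were called, Tlr1 and Tlr6, and Myd88 was not (adjusted p = 0.065, edgeR). Between mature cells, the count of 0 became 1 without a filter, 2 with a replicate block and 3 with upper-quartile scaling, and the cause was not tested. With the block Tlr2 (1.18, adjusted p = 0.046, edgeR) and Myd88 (0.54, 0.048) passed between mature cells and Myd88 between immature cells (0.63, 0.041). The block gave 6, 4, 4 and 1 called members in the comparisons of stages with IL-3, stages with TSLP, immature cells and the interaction. Over all genes the block called 5251 between stages with IL-3, in place of 5020. For the other comparisons, all-gene calls with the block, without a filter or with upper-quartile scaling are not given here. The added member calls can therefore not be set against a share of all genes. Leaving out 1 library gave 5 to 6 called members between stages with IL-3, 3 to 4 with TSLP, 0 to 1 between mature cells, 2 to 4 between immature cells and 1 to 1 in the interaction. Over all genes it gave 4268 to 5620, 1765 to 3449, 1663 to 2945, 594 to 2225 and 248 to 720 called genes in the same order. A fit of the 2 mature groups alone called 1708 genes in place of 2634. The values that turned direction were not called in either form. Without 1 library each, Ly96 ran from -0.096 (without IL-3 immature 1) to 0.60 between immature cells and, as immature minus mature TSLP cells, from -0.49 to 0.099 without TSLP immature 1 and 0.50 without TSLP mature 1. In the interaction Myd88 ran from -0.088 (without TSLP immature 3) to 0.25, with -0.022 without IL-3 mature 1. Without TSLP immature 3, which held 5 of the 6 counts of its group, Tlr4 was at -0.91 between immature cells and -1.14 in the interaction, and the ranges reached 1.86 and 1.61. Depth limits Tlr4, Tlr7, Tlr9 and Cd14 most, where groups held as few as 1 to 5 counts.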
